A study of Mus musculus with 12 samples.

Results

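Histone messages were read out of both knockout comparisons of the study, as the canonical replication-dependent genes and as the histone variants, among them those made in male germ cells. The members were the count-table entries whose symbol begins with Hist1h, Hist2h, Hist3h, Hist4h, H1f, H2af, H2bf or H3f, without names ending in -ps, and 88 of 51826 entries in the sperm table carried such a name. H3f4, listed there as Gm12260, was added through its RefSeq synonym, which gave 89 genes. In the testis table, 85 of the same genes were found among 23502 entries, and 15 of them stood there under such a name; the others were listed under newer symbols (Hist1h2bc as H2bc4, for example) and were matched through RefSeq synonyms. By class, 66 were replication-dependent genes, 11 were germ-cell variants, 11 were general replacement variants and 1, H3f3aos, was an antisense RNA placed in neither class. The replication-dependent class includes Hist1h2aj and Hist1h2al, which are annotated as pseudogenes and were not found in the testis table. The germ-cell variants H3f3c and H3f4 are protein-coding in RefSeq but pseudogenes in GENCODE.

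Sperm were taken from the cauda epididymis of P56 C57BL/6J males, as 3 WT and 3 XAP5L KO samples, the knockout being a global one made with CRISPR/Cas9. Testes were taken at P16 from WT and XAP5 cKO males, as 3 samples of each. In the cKO males a floxed, X-linked Xap5 allele was recombined by Stra8-GFPCre, a knock-in that drives Cre in germ cells, so that the somatic cells of the testis keep the gene. How many animals went into each sample is not given in the sources used here. The study's fertility tests used Xap5 fl/Y males as controls, and whether the WT testes carried the floxed allele or Cre is not given in the sources used here. RNA was poly(A)-selected before library preparation, and the deposited values were read counts per gene, 32251198 to 52308452 per library.

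Replication-dependent histone genes supply the bulk of the nucleosome during S phase. Their messages lack introns and usually end in a short stem-loop that SLBP, the stem-loop binding protein, holds, and not in a poly(A) tail, so a poly(A)-selected library catches mainly the minority of tailed transcripts. Replacement variants such as H3.3 and H2A.Z come from polyadenylated messages made outside S phase. In male germ cells a further set (H1t, TH2A, TH2B, H1T2, H3t and the short H2A.B proteins) is deposited during meiosis and spermiogenesis, before transition proteins and protamines take over the chromatin.

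In the transcripts annotated by GENCODE (vM21, GRCm38), the histone stem-loop, a run of 16 bases on the sense strand with GG at its start, CC at its end, arms that pair base for base and a loop rich in T, was found in 45 of 66 replication-dependent genes (68.2%), in 2 of 11 germ-cell variants and in 1 of 11 general variants, against 22 of 21818 protein-coding genes outside the members (0.101%). Several members without it have short annotated transcripts, such as Hist1h4k (312 bases) and H2afb1 (348 bases). Their annotation may stop before the end of the message, so these shares partly reflect how complete the annotation is. The 48 members that held the stem-loop had 9 different stem-loop sequences. Those of the members whose levels are followed here are shown with 5 bases on each side, the stem-loop in capitals.
Hist1h2bp: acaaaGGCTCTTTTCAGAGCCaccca
Hist1h1c: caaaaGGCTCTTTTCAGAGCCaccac
Hist1h4h: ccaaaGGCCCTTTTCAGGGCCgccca
H2bfm: tcaaaGGCTCTTTTCAGAGCCaccac
Hist1h1t: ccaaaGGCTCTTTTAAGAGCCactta
H2afx: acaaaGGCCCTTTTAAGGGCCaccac
The first was shared, in its 16 paired and loop bases, by 26 replication-dependent genes and by H2bfm, an X-linked H2B family gene. Hist1h4h stood for 7 H4 genes with 1 sequence, Hist1h1t shared its stem-loop with 5 replication-dependent genes, and that of H2afx occurred in no other member.

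A poly(A) signal of the letters AATAAA lay within the last 50 bases of an annotated transcript in 14 of 66 replication-dependent genes (21.2%), 3 of 11 germ-cell variants and 9 of 11 general variants, against 69.6% of all protein-coding genes. Short annotated transcripts limit these shares in the same way. The signals of 4 members are given with 5 bases on each side, the signal in capitals, as examples of annotated ends with the signal.
Hist1h2bp: ataaaAATAAAggttt
Hist1h1c: cttctAATAAAaagcg
H2bfm: taaaaAATAAAatgtt
Hist1h1t: gccagAATAAAggtca
In Hist1h1c, H2bfm and Hist1h1t the signal lay 814, 168 and 158 bases after the stem-loop of the same transcript. In Hist1h2bp it belonged to a 621-base spliced transcript without a stem-loop. Transcripts of Hist1h2bc, the most abundant replication-dependent gene in sperm, showed neither element, so the annotation does not account for every gene that was well counted.

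The 14 replication-dependent genes with the signal had a median level of 1.5 CPM (read counts scaled to a common library size, with TMM factors for composition) over the 6 sperm libraries, and the 52 others 0.135. In testes the medians were 0.687 CPM for the same 14 genes and 0.301 for the 50 others. The genes without the signal nevertheless held 61.9% of the summed level of the class in sperm and 76.4% in testes. Counts were concentrated in few genes. Hist1h2bc, Hist2h2aa1, Hist1h1c, Hist3h2a and Hist2h2be together held 76.4% of the replication-dependent level in sperm, and Hist2h2aa1, Hist2h2aa2, Hist1h2bc, Hist2h2be and Hist1h1c 75.8% of it in testes.

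Of the 250 bases before and 50 bases after RefSeq gene starts (GRCm38.p6), matched for 79 of 89 members, 3 motifs were searched on both strands. CCAAT was found in every one of 5 H1, 17 H2A, 16 H2B and 10 H3 replication-dependent promoters but in 3 of 12 for H4, against 37.4% of all 32851 promoters. TATAAA was found in 33 of 60 replication-dependent promoters (55.0%; all promoters, 13.6%), and the octamer ATTTGCAT in 12 of 60, all of H2A and H2B genes (all promoters, 1.74%). General variants had CCAAT in 6 of 9 and TATAAA in 1 of 9. The pair shown are Hist1h2bp, the replication-dependent gene called in both comparisons, from chr13:21787238-21787537 on the plus strand, and H1fx, the variant that fell in testes, from chr6:87981433-87981732 on the minus strand, both of GRCm38.p6 and with any match in capitals.
Hist1h2bp: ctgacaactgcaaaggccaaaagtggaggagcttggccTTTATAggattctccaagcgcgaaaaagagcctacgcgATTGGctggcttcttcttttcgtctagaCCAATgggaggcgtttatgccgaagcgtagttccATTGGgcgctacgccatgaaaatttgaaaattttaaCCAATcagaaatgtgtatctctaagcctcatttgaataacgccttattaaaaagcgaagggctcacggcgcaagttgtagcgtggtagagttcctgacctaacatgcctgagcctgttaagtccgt
H1fx: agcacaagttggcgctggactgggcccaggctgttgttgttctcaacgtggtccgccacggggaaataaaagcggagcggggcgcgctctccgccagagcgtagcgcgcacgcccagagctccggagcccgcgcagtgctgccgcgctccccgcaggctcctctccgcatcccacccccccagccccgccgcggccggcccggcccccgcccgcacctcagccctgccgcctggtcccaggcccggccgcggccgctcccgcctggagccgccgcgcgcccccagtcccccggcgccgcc
Hist1h2bp held 4 CCAAT matches and 1 TATAAA match, and H1fx none of the 3 motifs. The TATAAA match of Hist1h2bp lies on the opposite strand, where it reads TTTATA. It also falls in the promoter of the divergent gene Hist1h2an, whose start is 243 bases away, so it cannot be assigned to Hist1h2bp. Promoters of divergent neighbours overlap, and a site in the overlap was counted for both genes.

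Before the histone results, the targeted genes were read. Fam50b, the gene of XAP5L, was at 12.3 ± 4.5 CPM (SD, n = 3) in the WT group of sperm, against 0.356 ± 0.20 without XAP5L (log2 fold change -5.15, SE 0.47, adjusted p = 0.0118). Fam50a, the gene of XAP5, stood at 24.7 ± 2.6 CPM in WT testes and 19.6 ± 1.4 in XAP5 cKO testes (log2 fold change -0.33, adjusted p = 0.0495), and Fam50b was at 0.133 ± 0.12 CPM in the same XAP5 cKO testes (log2 fold change -6.48, adjusted p = 8.09e-05). Among WT testes, replicate 3 stood apart: its pachytene markers summed to 1092 CPM, against 2153 and 2052 in replicates 1 and 2 and 235 to 315 in the XAP5 cKO testes. The sperm libraries held the markers of elongating spermatids and sperm, such as the protamines, at a summed 51741 to 142388 CPM, and leukocyte markers at 2678 to 5148 CPM.

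In XAP5L KO sperm, few histone genes changed, and those that rose were an H2B gene and germ-cell variants. A gene was called at an adjusted p under 0.05 and a fold change over 2, and 7.59% of 20945 tested genes were called up and 1.27% down. Of the 66 replication-dependent genes, 32 passed the filter on low counts and 1 was called up. Of the 11 germ-cell variants, 6 passed it and 2 were called up. None of the 11 general variants, all tested, was called, and no member was called down by edgeR or by DESeq2. Without the fold threshold 1 replication-dependent gene and 2 germ-cell variants rose (9.02% of all tested genes), and 1 replication-dependent gene and 1 general variant fell (3.07%). At an unadjusted p under 0.05 whatever the fold, 2 replication-dependent genes, 3 germ-cell variants and 1 general variant rose. At the same threshold 5 replication-dependent genes and 2 general variants fell, and the share of all tested genes was not counted.

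Hist1h2bp, which encodes a canonical H2B and lies in the large histone cluster of chromosome 13 (chr13:21787461-21789213, GRCm38), had counts of 93, 85 and 93 in WT sperm, against 295, 341 and 466 in XAP5L KO sperm. The groups did not overlap. In CPM the means were 2.28 ± 0.47 and 7.53 ± 1.2, so that it rose by 1.72 on the log2 scale (SE 0.26, adjusted p = 0.0122). H2afb3, an X-linked gene of the H2A.B group that shortens the DNA wrapped on the nucleosome, had counts of 18, 22 and 31 against 91, 131 and 94. It rose by 1.91 on the log2 scale (SE 0.33, adjusted p = 0.0148). Its relative H2afb1, which shares 15.7% of its 100-base windows with it, went from 11, 4 and 2 counts to 14, 35 and 33 (1.84, adjusted p = 0.0886), and was called up without WT replicate 1 (2.92, adjusted p = 0.0318). H2afb1 passed the filter on low counts through the XAP5L KO libraries. H2afb2 had at most 1 count in any sperm library.

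Hist1h1t, the testis linker histone H1t of pachytene spermatocytes and spermatids, had counts of 11, 10 and 12 in WT, against 27, 40 and 69 in XAP5L KO sperm. Every knockout library lay above every WT library, and the log2 fold change was 1.69 (SE 0.41, adjusted p = 0.0321). These were low counts beside H1fnt, the spermatid linker H1T2, which alone held 95.9% of the germ-cell variant level in sperm. Its counts were 5587, 4335 and 4192 in WT, against 5145, 8087 and 13436 in XAP5L KO sperm, and the groups overlapped (log2 fold change 0.53, adjusted p = 0.243). H3f4, the testis H3t, had 79, 60 and 81 counts against 83, 94 and 172 (0.34, adjusted p = 0.483), and H3f3c 36, 60 and 82 against 48, 83 and 29 (-0.36, adjusted p = 0.578). Hist1h2aa and Hist1h2ba, which encode TH2A and TH2B from starts 306 bases apart on chromosome 13, were too low to be tested. Their counts were 5, 8 and 8 and 6, 8 and 8 in WT sperm, and 7, 22 and 15 and 7, 16 and 19 in XAP5L KO sperm. H2bfm reached at most 13 counts in sperm and H1foo, the oocyte linker, at most 2.

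The 3 sperm calls held without WT replicate 1 or XAP5L KO replicate 3, but each was lost on leaving out any of 3 other libraries. Without WT replicate 2 the adjusted p was 0.0734 for Hist1h2bp, 0.0803 for H2afb3 and 0.136 for Hist1h1t. Without WT replicate 3 it was 0.0812 for Hist1h2bp, 0.0812 for H2afb3 and 0.139 for Hist1h1t. Without XAP5L KO replicate 2 it was 0.0565, 0.0644 and 0.0853 in the same order, and without XAP5L KO replicate 1 Hist1h1t alone was lost (0.0704). Over all genes, those first 3 omissions left 1 to 2 calls in either direction, while the log2 fold changes of the 3 genes stayed between 1.51 and 2.17.

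Among the general variants in sperm, 6 of 11 lay lower in every XAP5L KO library than in any WT library, where 19.2% of all tested genes did so. H2afv, a replication-independent H2A.Z paralog, had 735, 1019 and 1072 counts in WT, against 386, 742 and 770 in XAP5L KO sperm. It fell by 0.89 on the log2 scale (SE 0.19, adjusted p = 0.0215), short of the fold threshold. Its adjusted p was 0.104 without WT replicate 2, 0.0989 without WT replicate 3 and 0.0783 and 0.0818 on leaving out XAP5L KO replicates 1 and 2 in turn. H1f0, the linker of non-dividing cells, had 780, 1153 and 1511 counts against 622, 1125 and 888 (-0.65, adjusted p = 0.0700). The H3.3 genes were the most abundant of the general variants, H3f3a at 186 ± 26 and 137 ± 22 CPM (-0.44, adjusted p = 0.20) and H3f3b at 184 ± 23 and 149 ± 7.7 CPM (-0.30, adjusted p = 0.333). H2afy, macroH2A1, gave -0.38 (adjusted p = 0.192) and H2afz, H2A.Z, -0.24 (adjusted p = 0.374).

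Of 32 replication-dependent genes tested, 4 lay above and 6 below WT in this way, and of 6 germ-cell variants 3 lay above, where 19.2% of all tested genes lay above and 19.2% below. The replication-dependent counts were thus at or under the share over all genes. The other 5 general variants overlapped between the sperm groups. H2afx, the H2A.X that is phosphorylated at DNA breaks and on the XY body, gave -0.56 (adjusted p = 0.218) and H2afj -0.23 (adjusted p = 0.487). The macroH2A2 gene H2afy2 gave 0.26 (adjusted p = 0.547) and H2afy3, annotated as a pseudogene, 0.78 (adjusted p = 0.285). H1fx, the replacement linker H1.X, ran the other way from most, with 1248, 926 and 1304 counts in WT, against 2719, 2850 and 2125 in XAP5L KO sperm. On the CPM scale WT replicate 1 lay above XAP5L KO replicate 3, and the log2 fold change was 0.91 (SE 0.31, adjusted p = 0.0765). Without XAP5L KO replicate 3 it was 1.22 and called up (adjusted p = 0.0179).

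Of the 5 most abundant replication-dependent genes of sperm, Hist1h2bc fell by adjusted p alone and the others did not pass the test. Hist1h2bc, an H2B gene with a spliced annotated transcript, had 2068, 2881 and 3798 counts in WT, against 1523, 2445 and 1783 in XAP5L KO sperm, or 71.1 ± 9.9 and 39.4 ± 7.6 CPM. The groups did not overlap on the CPM scale and it fell by 0.85 (SE 0.22, adjusted p = 0.0398). Only without WT replicate 1 did it stay under the threshold (0.0388), and the other 5 omissions gave 0.0648 to 0.165. Hist2h2be, an H2B gene with a polyadenylated message, had 446, 793 and 946 counts against 347, 556 and 662 (-0.75, adjusted p = 0.050, just over the threshold). Hist3h2a gave -0.62 (adjusted p = 0.0718) and Hist1h1c, the somatic linker H1.2, -0.42 (adjusted p = 0.219). Over the class, 13 of 32 log2 fold changes were positive, the median was -0.27 against -0.08 for all tested genes, and the values ran from -1.06 to 1.72. The class median was not stable in sign: it was -0.018 without WT replicate 3, 0.00071 without XAP5L KO replicate 1, 0.16 with no filter on low counts (all genes, 0.13) and 0.13 with DESeq2 (all genes, 0.098).

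The markers of other cells moved in the same samples. The 10 leukocyte markers, none of them at 3 counts or fewer throughout, summed to 4592 to 5148 CPM in WT, against 2678 to 3221 in XAP5L KO sperm, and 4 of 10 were called down. The 10 round spermatid markers summed to 529 to 855 and 1073 to 1424 CPM, and 9 of 10 were called up. The 10 Sertoli cell markers summed to 642 to 762 and 1053 to 1332 CPM, a rise carried by Clu (687 to 1204 CPM), while the median log2 fold change of the 8 tested was -0.57 and 1 was called down. The epididymal epithelium markers summed to 5953 to 8065 and 4220 to 5877 CPM, and the Leydig cell markers overlapped. Those of peritubular myoid cells summed to 98.8 to 123 and 149 to 176 CPM. The median log2 fold change of these 8 markers was nevertheless -0.16, with none called and 1 up by adjusted p alone. Those of pachytene spermatocytes, in which Hist1h1t is first made, summed to 1376 to 2307 and 2707 to 3353 CPM, with 3 of 10 called up. Their part in the histone results was not tested. In such bulk libraries fewer cells of a type and less RNA per cell cannot be told apart.

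**Figure D1:**
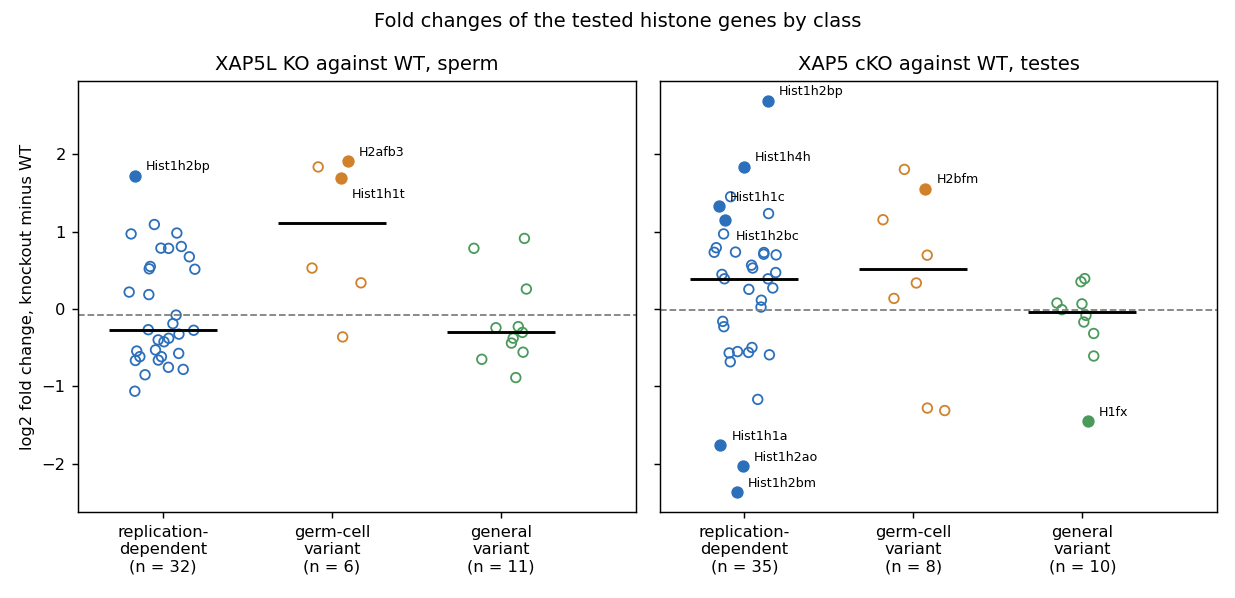
Log2 fold change (knockout minus WT) of each tested histone gene by class, in sperm at left and testes at right. Filled points were called, open points were not, black bars are class medians and the dashed line is the median of all tested genes. The germ-cell variant medians are at 1.11 and 0.52, over 6 and 8 tested genes of 11.

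In XAP5 cKO testes the classes split further: 4 replication-dependent genes rose and 3 fell, H2bfm rose, and the linker variant H1fx fell. Here 4.15% of 16821 tested genes were called up and 10.9% down. Of 64 replication-dependent genes 35 were tested, of 11 germ-cell variants 8, and all 10 general variants. By adjusted p alone, 9 replication-dependent genes rose and 3 fell, where 25% and 28.1% of all tested genes did so, and 1 germ-cell variant rose, 1 general variant rose and 4 fell.

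The largest changes in read number among the replication-dependent genes belonged to an H2B and a linker gene known for polyadenylated messages. Hist1h2bc (chr13:23684199-23692908) had 825, 707 and 740 counts in WT, against 1607, 1849 and 1262 in XAP5 cKO testes. It rose from 21.5 ± 2.7 to 47.5 ± 8.2 CPM, by 1.14 on the log2 scale (SE 0.15, adjusted p = 0.000236). Hist1h1c (chr13:23738808-23740367) had 267, 305 and 199 counts against 638, 705 and 468. It rose from 7.28 ± 1.5 to 18.2 ± 3.5 CPM, by 1.32 (SE 0.22, adjusted p = 0.000832). In neither gene did the groups overlap, and both calls held with any 1 library left out (adjusted p at most 0.00177 and 0.00475). Hist2h2be, the third such gene, went from 734, 518 and 408 counts to 308, 355 and 398 (-0.56, adjusted p = 0.0767).

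Hist1h2bp was nearly silent in WT testes, with 2, 6 and 8 counts, and had 36, 36 and 26 counts in XAP5 cKO testes. The log2 fold change was 2.69 (SE 0.62, adjusted p = 0.00529), at a level of 0.149 ± 0.083 and 0.988 ± 0.17 CPM. It was therefore called up in both knockouts, which share no library, and was the 1 replication-dependent gene of which this held. It passed the filter on low counts in testes through the XAP5 cKO libraries alone. Being tested there and being higher there are thus not independent. With at least 10 counts required in every library it was not tested in testes. In testes the call held without any 1 library (adjusted p 0.00863 to 0.0250), and 31.1% of its 100-base windows occur in other genes, 29.0% in Hist1h2bq. Hist1h2bq and Hist1h2br lay higher in every XAP5 cKO library without being called (0.70 and 0.57, adjusted p = 0.234 and 0.240).

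Hist1h4h, an H4 gene, rose from 20, 4 and 10 counts to 46, 40 and 30 (1.84, SE 0.63, adjusted p = 0.0348). It too passed the filter on low counts through the XAP5 cKO libraries. The call was lost without either of WT replicates 2 and 3 or any XAP5 cKO replicate (adjusted p 0.0535 to 0.11), and when 5 H4 genes with near-identical sequence were summed it was 0.128. Among genes called by adjusted p alone were Hist1h2bg (105, 96 and 99 against 209, 208 and 134 counts, 0.97, adjusted p = 0.0107), the H3 copies Hist2h3c1 (0.73, adjusted p = 0.00556) and Hist2h3c2 (0.73, adjusted p = 0.00952), and the H2A copies Hist2h2aa1 and Hist2h2aa2 (0.27 and 0.25). The 3 H3 copies of this locus summed to 410, 486 and 471 counts in WT, against 663, 814 and 645 in XAP5 cKO testes (0.73, SE 0.13, adjusted p = 0.00158).

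The replication-dependent genes that fell were low. Hist1h1a, the linker H1.1 of dividing cells and of spermatogonia and early spermatocytes, went from 50, 52 and 33 counts to 11, 9 and 17. The groups did not overlap and it fell by 1.76 (SE 0.49, adjusted p = 0.0144). Without WT replicate 1, WT replicate 2 or XAP5 cKO replicate 2 the adjusted p was 0.0600, 0.0582 and 0.0551. Hist1h2ao went from 14, 16 and 15 counts to 3, 3 and 4 (-2.03, adjusted p = 0.0289) and Hist1h2bm from 17, 13 and 27 to 6, 4 and 0 (-2.37, adjusted p = 0.050, just under the threshold). Both calls were lost when any 1 library was left out, with adjusted p of 0.0654 to 0.0942 and 0.0608 to 0.141. Both genes passed the filter on low counts through the WT libraries alone. Hist1h2ao shares 92.7% of its windows with Hist1h2ap. The joined group of 10 H2A genes that held both summed to 106, 109 and 58 counts in WT, against 73, 96 and 99 in XAP5 cKO testes (0.06, adjusted p = 0.888). That group also held genes that share less with others, such as Hist1h2ae (30.7% of its windows). Hist1h2bp, Hist1h2ao and Hist1h2bm, all under 1 CPM in testes, and Hist1h2bg, Hist1h2bq, Hist1h2br, Hist2h3c1 and Hist2h3c2 were chosen for naming there after their values were seen.

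Over the class, 23 of 35 log2 fold changes were positive, with a median of 0.39 against -0.01 for all tested genes. The 9 tested genes with an annotated AATAAA signal had a median of 0.70, with 2 called up and 1 of 9 negative, and the 26 without it a median of 0.18, with 2 called up and 3 down. In 14 of 35 genes every XAP5 cKO library lay above every WT library and in 4 below, where 29.9% and 32.4% of all tested genes did so. The 8 germ-cell variants tested had a median of 0.52, which was above that of the replication-dependent genes with all libraries but below it without XAP5 cKO replicate 3 (0.19 against 0.28) or WT replicate 1 (0.36 against 0.44). In sperm the germ-cell median of 1.11 was 0.71 without WT replicate 2 and 0.64 without WT replicate 3. Over the other filters, scalings and methods it ran from 0.55 to 1.69. It rested on 6 of 11 germ-cell variants, among them H2afb1, with 11, 4 and 2 counts in WT and 14, 35 and 33 in XAP5L KO sperm.

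Of the germ-cell variants in testes, H2bfm had the highest CPM, while per kilobase Hist1h2ba was slightly ahead of it in WT (4.15 against 3.99 RPKM). Its counts were 151, 159 and 134 in WT, against 313, 386 and 525 in XAP5 cKO testes, 4.19 ± 0.41 and 12.3 ± 3.2 CPM. It rose by 1.56 on the log2 scale (SE 0.23, adjusted p = 0.000448), and the call held without any 1 library (adjusted p at most 0.00258). The gene lies on the X chromosome (chrX:136927325-136928376), as do the H2afb genes. H2afb3 went from 2, 13 and 2 counts to 12, 22 and 22 (1.80, SE 0.81, adjusted p = 0.0900), so that it was higher in both knockouts but called in 1 of them. Without WT replicate 2 of the testes it was called too (3.21, adjusted p = 0.0246). In testes H2afb3 passed the filter on low counts through the XAP5 cKO libraries.

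Hist1h2ba, encoding TH2B, which replaces H2B in spermatocytes, had 79, 48 and 40 counts in WT, against 5, 22 and 38 in XAP5 cKO testes (-1.28, SE 0.65, adjusted p = 0.126). Its divergent neighbour Hist1h2aa had 0, 6 and 21 against 3, 14 and 39 counts (adjusted p = 0.423), and the libraries of 1 group spread more than the groups differed. Hist1h1t had 25, 31 and 6 counts against 12, 2 and 9 (-1.31, adjusted p = 0.211). H3f4 had 35, 58 and 63 against 54, 89 and 41 (0.34, adjusted p = 0.507), H3f3c gave 0.14 (adjusted p = 0.812) and H1foo 0.69 (adjusted p = 0.348). H1fnt had 5 counts in 1 WT library and none in the other 5, and H2afb1 and H2afb2 had none. The 10 markers of elongating spermatids and sperm summed to 5.14 to 6.40 CPM in these testes. A count of 0 in the shallowest library allows up to 3 counts of 32251198.

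H1fx was the general variant with the largest change. Its counts were 3091, 3501 and 2306 in WT, against 860, 1105 and 1086 in XAP5 cKO testes. It fell from 84.1 ± 17 to 30.7 ± 3.5 CPM, by 1.45 on the log2 scale (SE 0.16, adjusted p = 8.73e-05), and the call held without any 1 library (adjusted p at most 0.000813). WT replicate 3 was the lowest of the WT libraries and still above every XAP5 cKO library. H2afx had 5918, 6369 and 5648 counts in WT, against 3290, 3653 and 4069 in XAP5 cKO testes, and fell by 0.61 (SE 0.08, adjusted p = 0.000327), 1.52-fold. H2afz fell by 0.32 (adjusted p = 0.00874) and H3f3b by 0.17 (adjusted p = 0.0386), from 1148 to 1021 CPM, while H2afj rose by 0.39 (adjusted p = 0.0338). H3f3b stayed under the threshold only without XAP5 cKO replicate 3 (0.00725; other omissions up to 0.205), and H2afj only without WT replicate 3 (0.0101; others up to 0.116).

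The remaining general variants moved little in testes. H3f3a gave 0.07 (adjusted p = 0.330), H2afv 0.08 (adjusted p = 0.574), H1f0 -0.08 (adjusted p = 0.399) and H2afy -0.01 (adjusted p = 0.920), each with an SE of at most 0.11. H2afy2 gave 0.35 (adjusted p = 0.0839). Per kilobase of annotated exon, H3f3b was the most abundant variant in WT testes at 386 RPKM, ahead of H2afz (139), H2afx (122) and H3f3a (116), and the highest replication-dependent genes were the copies Hist2h2aa2 (65.1) and Hist2h2aa1 (58.4).

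Markers of other cells also moved in the testes. Those of pachytene spermatocytes summed to 1092 to 2153 CPM in WT, against 235 to 315 in XAP5 cKO testes, with 9 of 10 called down, and those of leptotene and zygotene spermatocytes to 2411 to 2801 and 1064 to 1382 CPM, with 9 of 10 called down. The 10 Sertoli cell markers summed to 4806 to 5244 and 8401 to 9940 CPM, with 1 called up and 9 up by adjusted p alone. Spermatogonia markers summed to 731 to 859 and 527 to 569 CPM, with 3 of 10 called down. Leydig cell markers summed to 415 to 598 and 736 to 1183 CPM, but were split, with 4 of 10 called up and 2 called down. Leukocyte markers summed to 50.5 to 77.1 and 110 to 134 CPM, with 4 called up. Peritubular myoid cell markers summed to 838 to 1067 and 1233 to 1344 CPM, with none called. None of the 30 pachytene, leptotene and zygotene, and Sertoli markers stood at 3 counts or fewer in every library. Their part in the changes of H1fx, H2afx, H2bfm, Hist1h1c and Hist1h2bc was not tested.

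**Figure D2:**
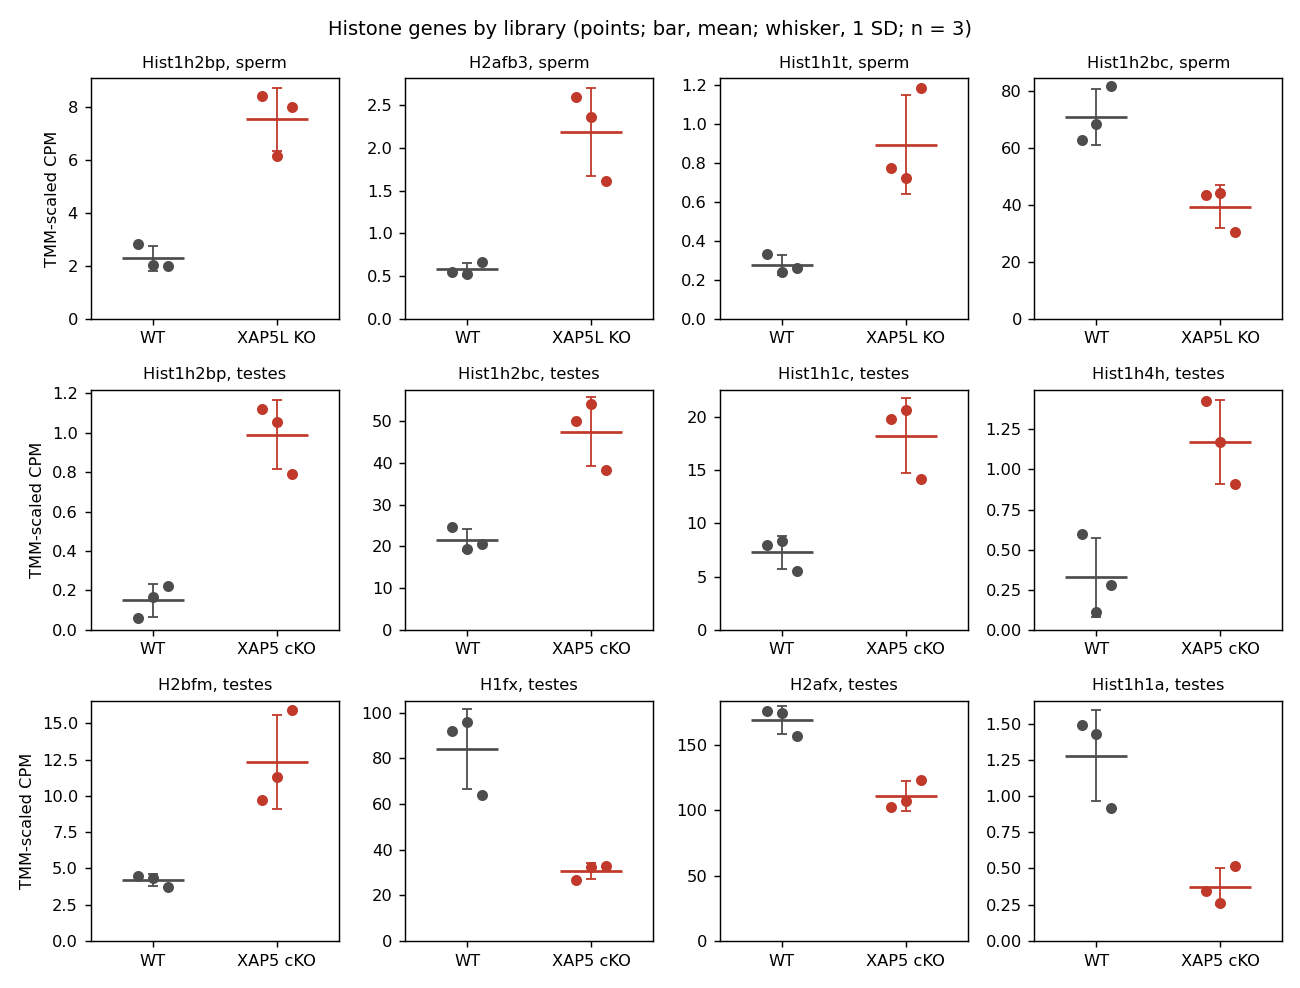
TMM-scaled CPM of 12 gene and tissue pairs in each library, WT in grey and knockout in red, with the mean as a bar and 1 SD as a whisker (n = 3). The groups do not overlap in any panel; Hist1h2bp is higher in both knockouts, and Hist1h2bc is lower in XAP5L KO sperm and higher in XAP5 cKO testes.

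The genes that handle histones and their messages were counted from lists. Of 17 genes of histone mRNA transcription and processing, all tested, 10 fell and 1 rose in testes by adjusted p alone, each by less than 2-fold, where 28.1% and 25% of all tested genes did so. Slbp fell by 0.73 (SE 0.06, adjusted p = 2.46e-05) and Ncbp1, of the nuclear cap-binding complex, from 170 to 85.1 CPM (adjusted p = 4.2e-05), just under 2-fold. In sperm Ncbp1 was the 1 gene of the 17 called, and it rose by 1.04 (adjusted p = 0.0389), where 7.59% of all tested genes were called up. Of 28 histone chaperone and exchange genes, 8 were called down in testes (all tested genes, 10.9%), among them Chd5, a remodeler of the histone-to-protamine exchange (-1.77), Hirip3, a partner of the H3.3 chaperone HIRA (-1.58), and Chaf1a, of the replication-coupled chaperone CAF-1 (-1.55). Of these, Chd5 (1.21) and Chaf1a (1.32) were called up in XAP5L KO sperm, with Brdt, the testis bromodomain protein (1.36), and Rnf8 was called down (-1.12).

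Of 28 S phase and DNA replication genes, 10 were called down in testes (10.9% of all tested genes) and 24 fell by adjusted p alone (28.1%), with a list median of -0.85 against -0.01 for all tested genes. The largest falls were those of Gins1 (-1.87), Ccne2, a cyclin of S phase entry (-1.86), and Uhrf1 (-1.40), each at an adjusted p of at most 1.69e-05. The replication-dependent histone genes had a median of 0.39 in the same fit. In sperm 1 of the 28, Uhrf1, was called, upward (1.16, adjusted p = 0.0217). Transition proteins, protamines and other germ-cell nucleosome proteins outside the name rule, 21 of 25 tested in sperm, had adjusted p over 0.05 throughout and a median of 0.67.

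Replication-dependent genes and variants were also compared by their summed level per library. In sperm the replication-dependent genes summed to 184, 201 and 205 CPM in WT, against 164, 173 and 154 in XAP5L KO libraries, and the general variants to 522, 595 and 601 against 513, 454 and 444. Scaled by library size alone, both overlapped, the replication-dependent sums at 151 to 228 and 132 to 194 CPM and the general variant sums at 428 to 668 and 414 to 510, so their separation in sperm rests on the TMM factors, which were 0.821 and 0.808 in replicate 1 of each group and 1.08 to 1.12 in the others. Without Hist1h1c and Hist1h2bc the sums overlapped too, at 93.6 to 109 and 102 to 110 CPM. The germ-cell variants summed to 175, 107 and 95.4 CPM against 155, 154 and 238, overlapping, and without H1fnt to 4.23 to 5.10 against 7.57 to 8.11.

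In testes the replication-dependent sum was higher in the knockout, at 162, 147 and 138 CPM in WT, against 206, 224 and 199 in XAP5 cKO libraries. It stayed apart without Hist1h1c and Hist1h2bc, at 112 to 129 and 136 to 149 CPM. The general variants summed to 2473, 2368 and 2393 CPM against 2056, 2141 and 2254, and without H1fx to 2272 to 2380 against 2029 to 2221. The germ-cell variants summed to 9.85, 10.1 and 8.73 against 14.0, 16.8 and 22.5 CPM, and without H2bfm to 5.0 to 5.76 against 4.23 to 6.56, so that H2bfm carried the difference. General variants exceeded replication-dependent genes in every library of both tissues. These sums come after poly(A) selection, which catches mainly tailed messages, and were not scaled by transcript length.

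**Figure D3:**
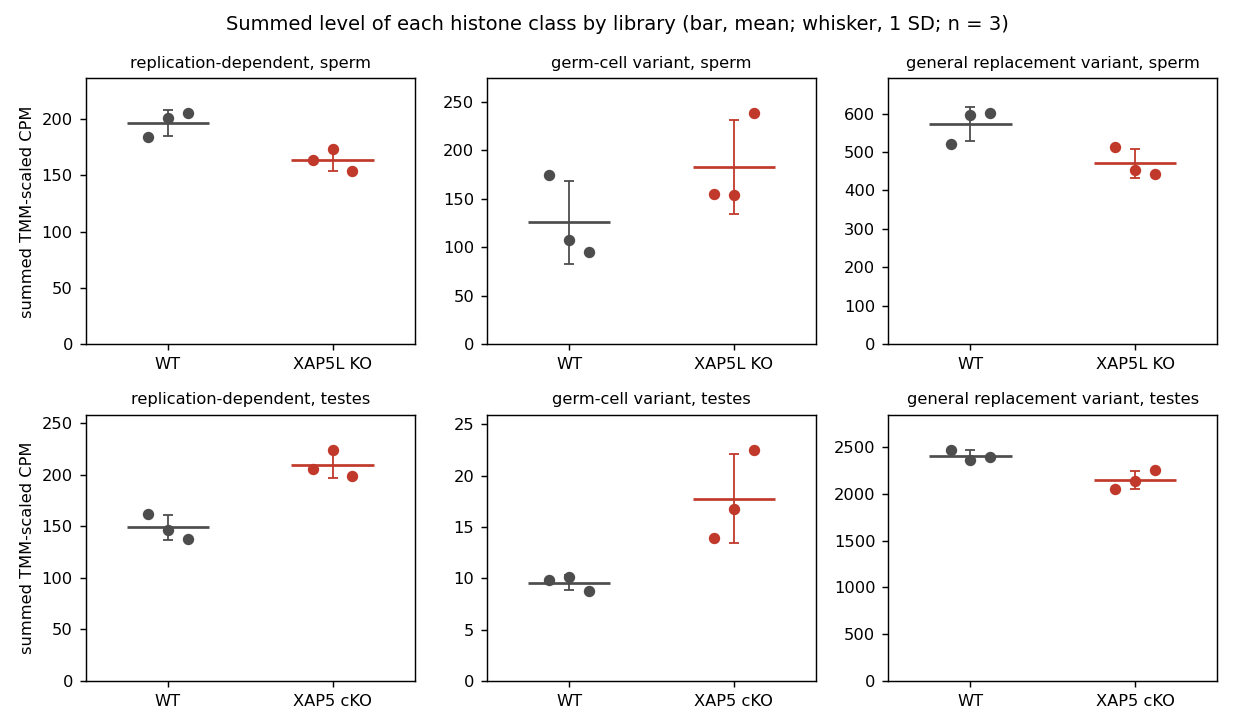
Summed TMM-scaled CPM of each histone class in each library, sperm above and testes below, with the mean as a bar and 1 SD as a whisker (n = 3). The replication-dependent sum is lower in XAP5L KO sperm (154 to 173 against 184 to 205 CPM) and higher in XAP5 cKO testes (199 to 224 against 138 to 162 CPM).

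Side by side, 24 replication-dependent genes, 4 germ-cell variants and 10 general variants were tested in both comparisons, which used different animals, ages and tissues and share no library. Of the 24, 8 had a positive log2 fold change in both, 4 a negative one in both, 10 were negative in sperm and positive in testes, and 2 the reverse. Without overlap of libraries in either tissue, 2 ran in opposite directions, Hist1h2bc (-0.85 in sperm, 1.14 in testes) and Hist1h2bg (-0.58 and 0.97), which share 39.7% of the windows of Hist1h2bg. Of all tested genes, 19.2% lay lower without overlap in XAP5L KO sperm and 29.9% lay higher in XAP5 cKO testes. The share of all genes that did both, or that had each pair of signs, was not counted. H1fx (0.91 and -1.45) and Hist1h1t (1.69 and -1.31) were among the variants of opposite sign, in each case with a call in 1 of the tissues. The difference between the tissues was not tested, since genotype, age and cell type changed together. Of 14 head-to-head pairs of members with starts 176 to 660 bases apart, 2 had both genes tested in sperm and 6 in testes, and 1 and 2 of them had values of the same sign.

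**Figure D4:**
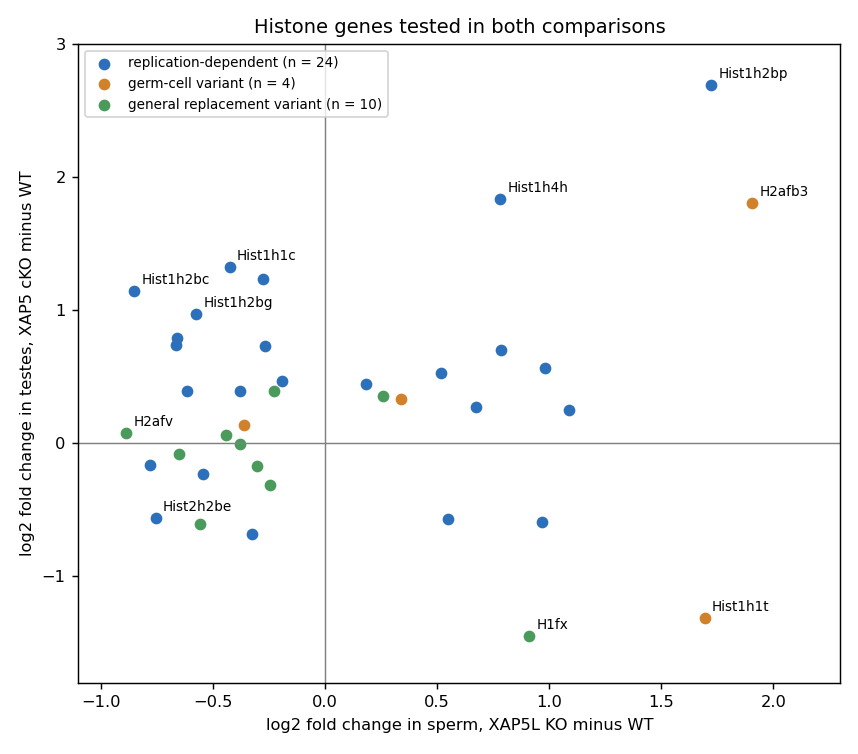
Log2 fold change in XAP5L KO sperm (horizontal) against that in XAP5 cKO testes (vertical) for the 38 members tested in both, coloured by class. Hist1h2bp and H2afb3 lie far to the upper right, H1fx and Hist1h1t to the lower right, and Hist1h2bc and Hist1h1c to the upper left.

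Identical copies limit what can be said of single genes. Every 100-base window of Hist2h2aa2 occurs in Hist2h2aa1, and 88.1% of those of Hist2h2aa1 occur in Hist2h2aa2. In sperm Hist2h2aa1 had 1345, 1488 and 6 counts in WT, against 1588, 2387 and 1931 in XAP5L KO libraries, and Hist2h2aa2 0, 0 and 245 and 82, 254 and 263. WT replicate 3 thus stood apart in both. In testes both copies had nearly equal counts in each library, 1195 and 1193 in WT replicate 1, for example. How reads with several positions were counted is not given in the sources used here, and the counts of the copies split differently in the 2 tables. Summed, the pair had 1345, 1488 and 251 counts in WT sperm, against 1670, 2641 and 2194 in XAP5L KO sperm (0.71, SE 0.55, adjusted p = 0.383), and in testes rose by 0.26 (SE 0.08, adjusted p = 0.0197), under the fold threshold.

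**Figure D5:**
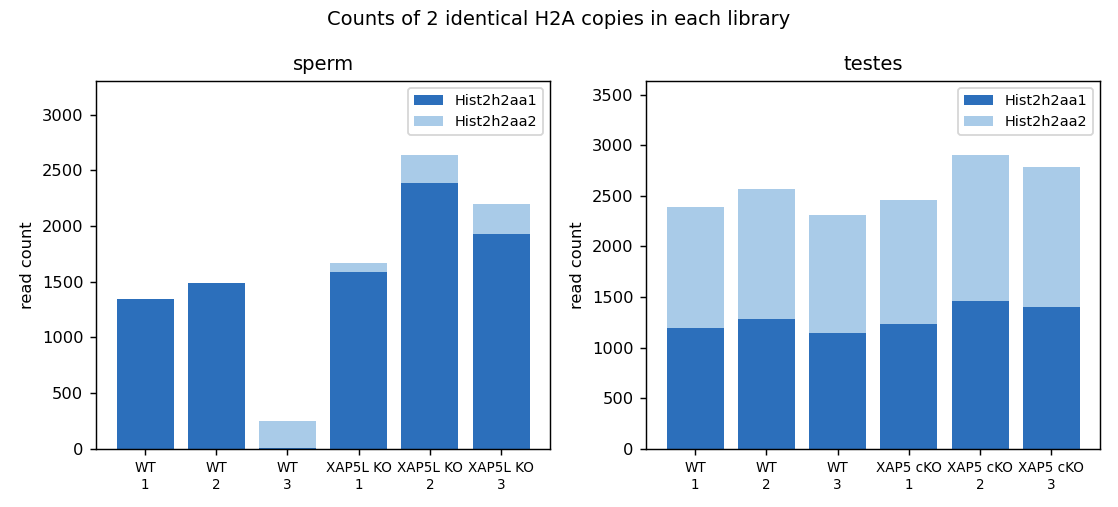
Read counts of Hist2h2aa1 and Hist2h2aa2, stacked, in each sperm library (left) and testis library (right). In sperm Hist2h2aa1 takes most counts except in WT replicate 3, where the total is lowest (251) and Hist2h2aa2 takes most, and in testes the copies take equal shares.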

How the data were processed

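Poly(A)-selected RNA of 6 sperm and 6 testis libraries was sequenced in pairs of reads. Per the labels and the study's methods, the authors trimmed reads with Trimmomatic 0.36, checked them with FastQC 0.11.2, aligned them to GRCm38 with HISAT2 2.1.0 and used DESeq2 1.12.4. The deposited values are raw read counts per gene; the counting tool, strand setting and treatment of multi-mapping reads are not given in the sources used here, so members with shared sequence are uncertain.

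Each tissue was fitted alone with edgeR 4.0.16 (TMM, filterByExpr, quasi-likelihood test, R 4.3.3), WT against knockout, over all genes, with Benjamini-Hochberg adjustment. SE is that of the log2 fold change, and numbered replicates were taken as separate biological samples of 1 group. The step was tested on simulated data. Members and lists were chosen with earlier results of these data known. Genes named were all variants that were tested, the 5 most abundant replication-dependent genes and called members at 1 CPM or more; others are marked. H3f4 was placed with the germ-cell variants and H3f3aos in neither class after the tables were read. DESeq2 1.42.0, other scalings and filters, the replicate number as a block and the omission of each library were the alternatives. A replicate number was not taken to pair libraries: the correlations of same-numbered libraries' deviations were 0.17, -0.02 and -0.14 in sperm and 0.00, -0.04 and -0.05 in testes.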

Additional observations from a re-analysis of the deposited data

How the results depend on the processing

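In sperm, 1 replication-dependent gene and 2 variants were called up. An adjusted p under 0.01 left 0 and 0, since the smallest adjusted p of any gene was 0.0118, and a replicate block left 1 variant, with Hist1h1t lost (adjusted p = 0.0650); in testes it lost Hist1h2ao (0.0740) and Hist1h2bm (0.104), and it changed no other call of a named member. Without the fold threshold 1 replication-dependent gene and 1 variant were called down. Omitting single libraries gave 0 to 1 replication-dependent genes up and 0 down, and 0 to 3 variants up and 0 down. In testes, 4 replication-dependent genes were called up: 2 with at least 10 counts in every library, 9 without the fold threshold and 3 to 5 on omitting a library. The 3 called down became 1 without a filter, 1 with DESeq2 and 1 with a replicate block. They became 0 with at least 10 counts in every library, 0 at an adjusted p under 0.01 and 0 to 1 on omitting a library. With members joined by shared windows summed, an alternative chosen after seeing the data, 1 was called down. The 1 variant up became 2 and the 1 down became 4 without the fold threshold; omitting a library gave 1 to 2 up and 1 down. The cause of these shifts was not tested, and an omission or filter also leaves fewer samples or genes. Over all genes in sperm, 1 was called up without WT replicate 2 and 2402 without XAP5L KO replicate 3, against 1589 with all libraries. On omitting single libraries the log2 fold change changed sign for H3f3c in sperm (-0.65 to 0.081) and for H2afv (-0.00057 to 0.19), H2afy (-0.071 to 0.026) and H3f3c (-0.069 to 0.36) in testes, none of them called. Low counts limited the replication-dependent class most. The filter left untested 34 of 66 genes in sperm, none over 20 counts, and 29 of 64 in testes, none over 39.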
